A study of Drosophila melanogaster with 9 samples.

Results

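Cytochrome P450 genes were followed in *Drosophila* embryos that lack *pri* or *ken*. The 79 genes are the rows of the count table whose name begins with Cyp, a family number and a letter, except *Cyp18a1*, out of 15228 genes in all. Of these, 2 are annotated as pseudogenes (*Cyp6a15Psi* and *Cyp6t2Psi*). P450 enzymes bind heme and use molecular oxygen and electrons from a redox partner to oxidize small lipophilic molecules. In insects they make and break down hormones, build cuticular hydrocarbons, and clear plant toxins and insecticides, with the gut, Malpighian tubules, fat body and oenocytes as known sites of expression. Named by their protein families, the genes fall into 38 of the CYP3 clan, which holds many of the detoxification enzymes, 30 of the CYP4 clan, 8 of the mitochondrial clan and 3 of the CYP2 clan.

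RNA of whole embryos was sequenced after poly(A) selection from *pri S18.1* mutants, from *ken1*/*Df*(*2R*)*BSC660* mutants, which carry a *ken* allele over a chromosome deficiency, and from control embryos, whose titles begin with w and whose genotype label is WT. *pri* encodes small peptides and *ken* a transcriptional repressor. Each genotype had 3 samples of 200 embryos at stage 16, when the embryonic cuticle is made, and the mutants were hand-picked by the lack of a GFP balancer. The study calls the samples of a genotype independent. Because each sample is a whole embryo pool, fewer cells of a type and less RNA per cell cannot be told apart, nor can the mutations be told apart from other differences between the stocks.

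The depth was 21048610 to 28859395 counts per sample. *ken* itself stood at 1197, 1184 and 1338 normalized counts in *ken* mutants, against 6957, 7431 and 6432 in control embryos. No value of *pri* is given. A normalized count is the count of a gene divided by the size factor of its sample. Fold changes, their standard errors (SE) and p-values come from a quasi-likelihood fit in edgeR that took in all 9 samples. P-values were adjusted over all 15228 genes, and genes with an adjusted p under 0.05 are named as called. The eye color genes *w*, *ry* and *cn*, listed to compare the stocks, were higher in both mutants. *ry* averaged 4089 ± 403 normalized counts in *pri* and 4358 ± 262 in *ken* mutants, against 958 ± 24.2 in control embryos (SD, n = 3 each). The part of stock background in the values below was not tested.

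Most of the family was expressed at this stage, over a wide range of levels. A mean of at least 10 normalized counts was reached by 67 of the 79 genes in each of the 3 genotypes. *Cyp316a1* and *Cyp313a5* had no count in control embryos. Per kilobase of exon, the median gene stood at 78.7 normalized counts in control embryos, and the 8 highest were *Cyp304a1* (3044), *Cyp6d5* (2281), *Cyp4e2* (1482), *Cyp6a8* (1167), *Cyp4g1* (1048), *Cyp301a1* (1013), *Cyp309a2* (995) and *Cyp9b2* (660). Of these 8, 5 were called in some comparison, beside 19 of all 79 P450 genes. The 8 were picked by level, and the share called among all genes of like level is not given here. The sum over the family was 35215 ± 4767 in *pri* and 39405 ± 6032 in *ken* mutants, against 38555 ± 2959 in control embryos (SD, n = 3 each), so that the totals overlapped while single genes moved.

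**Figure D1:**
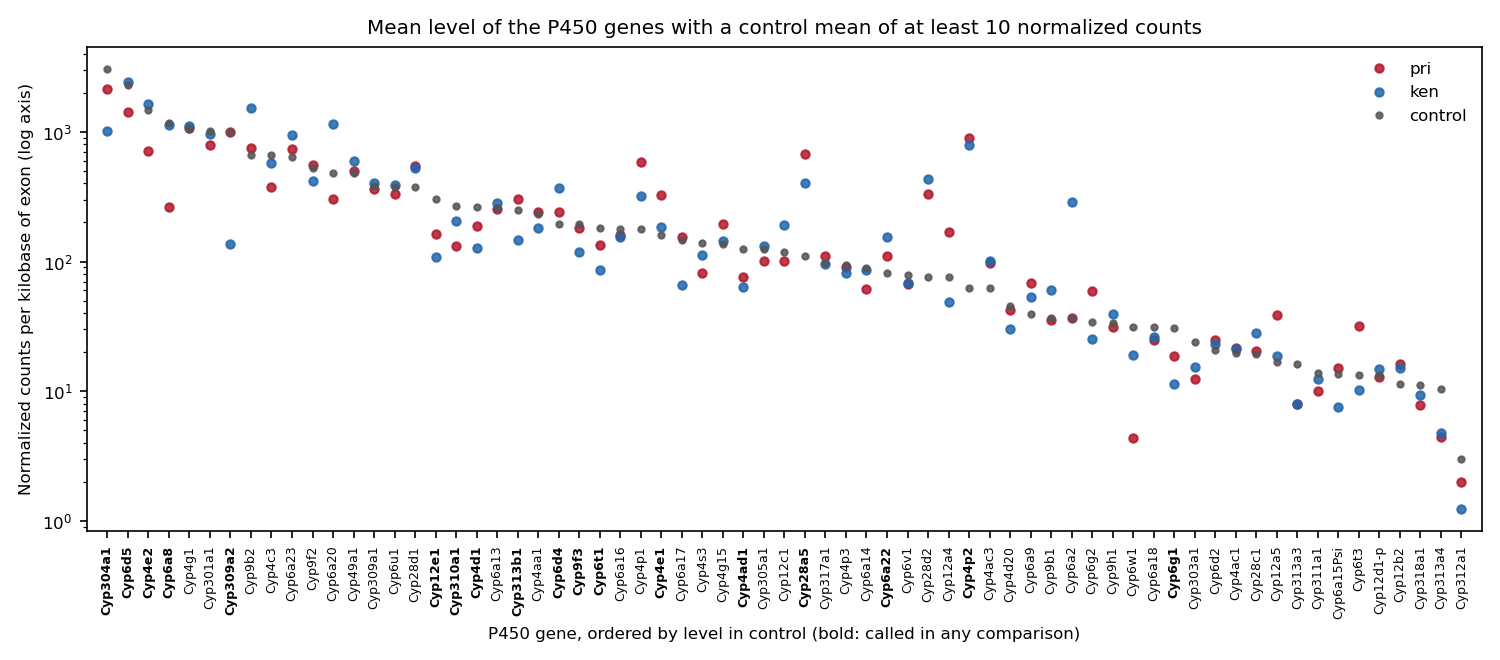
Mean level of each P450 gene with a control mean of at least 10 normalized counts (67 genes), in normalized counts per kilobase of exon on a log axis, for *pri*, *ken* and control embryos (n = 3 each, means only). Names in bold are genes called in any comparison, except *Cyp6a19*, whose control mean is too low to be drawn; *Cyp6a8* lies far below control in *pri*, *Cyp309a2* far below control in *ken*, and *Cyp4p2* and *Cyp28a5* far above control in both.

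In *pri* mutants 3 of the 79 genes were higher and 5 were lower than in control embryos. That is 8 genes called, or 10.1%. Over all genes the shares were 3.68% higher, 3.83% lower and 7.51% in either direction. In *ken* mutants 5 were higher and 9 lower, 17.7% of the family, where 2.21% of all genes were higher, 2.81% lower and 5.02% either. The median log2 fold change of the 79 genes was −0.06 in *pri* and 0.04 in *ken*, beside 0.02 and 0.01 over all genes, so that no shift of the family as a whole was measured. In the direct test of *pri* against *ken*, 6 were higher in *pri* and 4 lower, 12.7% of the family, where 4.03% of all genes were higher, 4.09% lower and 8.12% either. In all, 19 genes were called in any of the 3 comparisons and 60 in none. The share of all genes called in any of the 3 is not given here. The *pri* and *ken* comparisons share their control samples.

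By clan, the called genes of *pri* against control were 1 higher and 3 lower in CYP3, 2 higher and 1 lower in CYP4 and 1 lower in the mitochondrial clan. In *ken* against control they were 4 higher and 4 lower in CYP3, 1 higher and 3 lower in CYP4, 1 lower in the mitochondrial clan and 1 lower in CYP2. Relative to its control level, the small CYP2 clan had the lowest sum of the 4 clans in *ken*, at 3883 ± 618 normalized counts in *pri* and 2031 ± 586 in *ken* mutants, against 5514 ± 746 in control embryos (SD, n = 3 each). Nearly all of it was *Cyp304a1*, described further on. The mitochondrial clan stood at 3856 ± 243 in *pri* and 4300 ± 404 in *ken* mutants, against 4271 ± 285 in control embryos. CYP3 genes summed to 16893 ± 3344 in *pri* and 21855 ± 5437 in *ken* mutants, against 18573 ± 2245 in control embryos, and CYP4 genes to 10583 ± 1654 in *pri* and 11219 ± 1492 in *ken* mutants, against 10198 ± 1395 in control embryos.

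**Figure D2:**
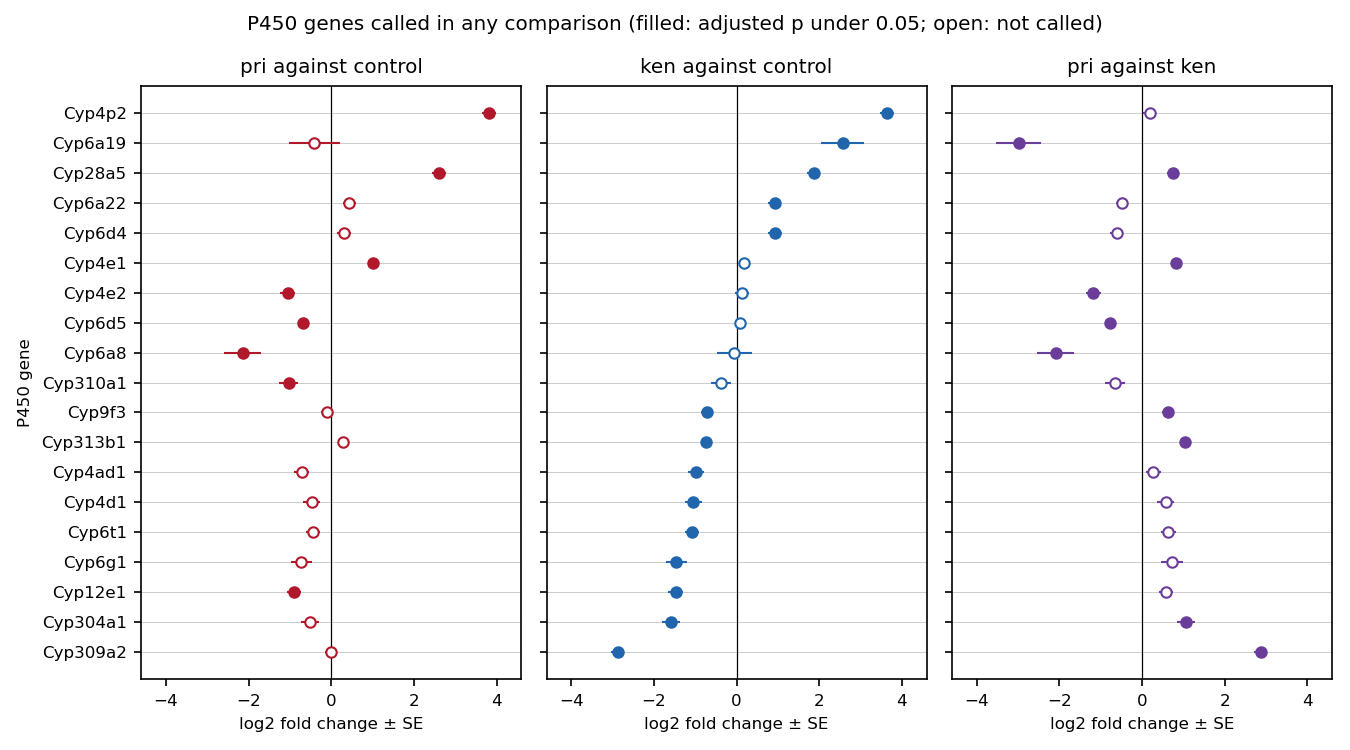
Log2 fold change with its SE (edgeR, n = 3 samples per genotype) of the 19 P450 genes called in any comparison, in 3 panels for *pri* and *ken* against control and for *pri* against *ken*, ordered by the value in *ken*. Filled points have an adjusted p under 0.05; *Cyp4p2*, *Cyp28a5* and *Cyp12e1* are filled on the same side in both mutants.

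Of the 79 genes, 3 were called in the same direction in both mutants. The share of all genes called so is not given here. *Cyp4p2*, a CYP4 gene (FBgn0033395, 2R from 9237512 to 9239831 in dm6), had 1653, 1421 and 1688 normalized counts in *pri* and 1482, 1313 and 1394 in *ken* mutants, against 120, 133 and 82.1 in control embryos. Every mutant sample lay far above every control sample. It rose by 3.82 on the log2 scale in *pri* (SE 0.17, adjusted p = 1.13e-05) and 3.63 in *ken* (SE 0.17, adjusted p = 2.03e-05), and the mutants did not differ beyond their spread (0.19, 95% interval −0.15 to 0.52).

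*Cyp28a5*, of a CYP3 family whose members *Cyp28d1* and *Cyp28d2* respond to plant toxins, lies on 2L from 13977302 to 13979569. It had 1363, 1147 and 1062 normalized counts in *pri* and 726, 617 and 787 in *ken* mutants, against 181, 233 and 169 in control embryos. The 3 groups did not overlap, with *pri* highest and control lowest. The log2 fold change was 2.61 in *pri* (SE 0.16, adjusted p = 4.48e-05) and 1.87 in *ken* (SE 0.16, adjusted p = 0.000249), and *pri* was higher than *ken* by 0.75 (SE 0.15, adjusted p = 0.0163). The last of these was not called without *ken* sample 2 (adjusted p = 0.0672). *NimC1*, a phagocytosis receptor of hemocytes, lies 532 bases away and was higher in *pri* (1.02) but lower in *ken* (−0.88).

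*Cyp12e1*, a mitochondrial P450 gene (3R, 10434789 to 10436704), was lower in both mutants. It had 279, 262 and 246 normalized counts in *pri* and 227, 155 and 145 in *ken* mutants, against 444, 529 and 494 in control embryos. Its log2 fold change was −0.90 in *pri* (SE 0.17, adjusted p = 0.0145) and −1.48 in *ken* (SE 0.18, adjusted p = 0.00151). Both mutants lay below all control samples, and *pri* against *ken* was at 0.58 (95% interval 0.18 to 0.97, not called, but called without *ken* sample 1 with an adjusted p of 0.00868 and by DESeq2 with 0.029). The call in *pri* was lost without *pri* sample 3 (adjusted p = 0.0589), control sample 2 (0.0604) or control sample 3 (0.0522).

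**Figure D3:**
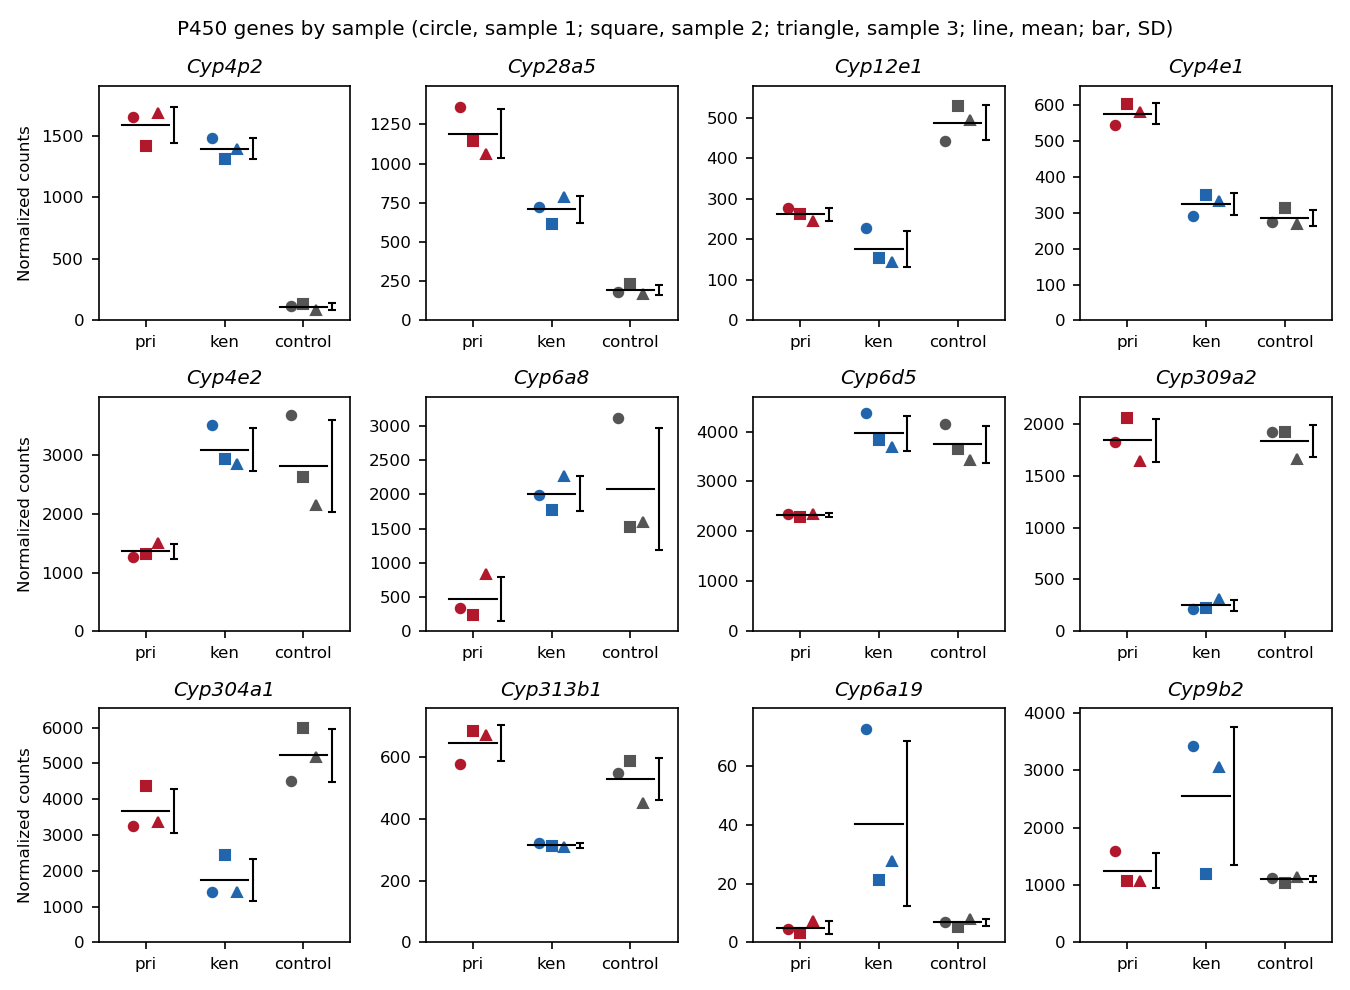
Normalized counts of 12 P450 genes in each sample of *pri*, *ken* and control embryos, with the mean (line) and SD (bar) of 3 samples; each panel has its own axis from 0. Control sample 1 is the highest control for *Cyp4e2* and *Cyp6a8*, and *ken* sample 1 is the highest for *Cyp6a19* and *Cyp9b2*.

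The other genes called in *pri* mutants were 1 higher and 4 lower, and all but 1 of these also differed from *ken* mutants in the direct test. *Cyp4e1*, a CYP4 gene on 2R (8447451 to 8449745), had 544, 602 and 581 normalized counts in *pri* and 290, 350 and 334 in *ken* mutants, against 275, 312 and 269 in control embryos. All *pri* samples lay above all others. It rose by 1.01 in *pri* against control (SE 0.11, adjusted p = 0.00129) and was 0.83 higher in *pri* than in *ken* (SE 0.11, adjusted p = 0.00234), both on the log2 scale. Its exons share 82 bases with the maltase gene *Mal-A1* on the other strand, and *Mal-A1* was not called in *pri* (0.66).

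*Cyp4e2*, its neighbor 286 bases away, went the other way and is among the 3 highest P450 genes of control embryos per kilobase. It had 1264, 1314 and 1499 normalized counts in *pri* and 3499, 2929 and 2838 in *ken* mutants, against 3669, 2616 and 2151 in control embryos. All *pri* samples lay below all others. *pri* differed by −1.05 on the log2 scale against control (SE 0.18, adjusted p = 0.00889) and −1.18 against *ken* (SE 0.18, adjusted p = 0.00437).

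*Cyp6a8*, a CYP3 gene known to be induced by foreign compounds, had the widest drop in *pri* mutants among the P450 genes called lower there (2R, 14887171 to 14889010). It had 339, 235 and 839 normalized counts in *pri* and 1991, 1771 and 2269 in *ken* mutants, against 3107, 1525 and 1602 in control embryos. *ken* overlapped control, and *pri* lay below both. In *pri* the log2 fold change was −2.14 against control (SE 0.45, adjusted p = 0.0212) and −2.09 against *ken* (SE 0.45, adjusted p = 0.0214). *pri* sample 3 and control sample 1 stand apart from their groups. Without *pri* sample 3 the log2 fold changes were −2.86 and −2.81, both called. The 2 calls were among the less stable ones: that against control was lost without *pri* sample 1 (adjusted p = 0.0523) or control sample 1 (0.078), with 2 genotypes fitted (0.0549) and with a robust spread (0.0587), and that against *ken* without *pri* sample 1 (0.0516), *ken* sample 1 (0.0506) or *ken* sample 3 (0.0666) and with a robust spread (0.0601).

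*Cyp6d5*, the second highest P450 gene in control embryos per kilobase (CYP3, 3R, 14029228 to 14031483), was close to uniform within *pri*. It had 2354, 2287 and 2348 normalized counts in *pri* and 4363, 3833 and 3687 in *ken* mutants, against 4159, 3642 and 3421 in control embryos. It was lower in *pri*, with log2 fold changes of −0.68 against control (SE 0.10, adjusted p = 0.00321) and −0.76 against *ken* (SE 0.10, adjusted p = 0.00161). The gene lies 154311 bases from *E5*, which had 8.02, 10.6 and 10.5 normalized counts in *pri* mutants and 360, 360 and 330 in control embryos, and none of the 10 genes of the table between them was called in *pri*. *rdx*, whose span *Cyp6d5* overlaps, was lower in *pri* by less (−0.33, adjusted p = 0.0345).

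*Cyp310a1*, a CYP3 gene linked to Wingless signaling in the wing disc, had 154, 220 and 278 normalized counts in *pri* and 266, 435 and 327 in *ken* mutants, against 486, 458 and 390 in control embryos (2L, 18651058 to 18653010). *ken* overlapped both other groups. The log2 fold change was −1.03 in *pri* (SE 0.24, adjusted p = 0.031) and −0.38 in *ken* (not called). This was the least stable call of *pri*: the adjusted p was 0.0521 without *pri* sample 1, 0.0792 without *pri* sample 2, 0.0547 without *ken* sample 3, and 0.11, 0.0938 and 0.0611 without control samples 1, 2 and 3.

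Of the 5 lower calls in *pri*, 3 were left without *pri* sample 1 or without any 1 of the control samples. The calls of *Cyp4p2*, *Cyp28a5*, *Cyp4e1*, *Cyp4e2* and *Cyp6d5* in *pri* against control held in all 17 alternatives that refit the data, which include each sample left out in turn. The planned minimum of 1 on the log2 scale is not among the 17, and *Cyp6d5* changed by less than that.

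In *ken* mutants the widest change of the called genes after *Cyp4p2* was a drop of *Cyp309a2*, a CYP3 gene on 2L (FBgn0041337, 2564886 to 2573037). It had 1825, 2056 and 1641 normalized counts in *pri* and 214, 227 and 311 in *ken* mutants, against 1924, 1924 and 1659 in control embryos. *pri* lay around the control values and *ken* far below. The log2 fold change was −2.88 in *ken* (SE 0.16, adjusted p = 2.54e-05) and 0.00 in *pri* (95% interval −0.33 to 0.33), and *pri* was higher than *ken* by 2.88 (SE 0.16, adjusted p = 4.22e-05).

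The P450 gene with the highest control level per kilobase, *Cyp304a1*, fell in *ken* mutants as well (CYP2 clan, 3R, 12963791 to 12965923). It had 3254, 4368 and 3372 normalized counts in *pri* and 1400, 2434 and 1414 in *ken* mutants, against 4510, 5992 and 5169 in control embryos. The 3 groups did not overlap, with *pri* between. The log2 fold change was −1.58 in *ken* (SE 0.22, adjusted p = 0.00379) and −0.51 in *pri* (SE 0.22, adjusted p = 0.208, not called). *pri* was higher than *ken* by 1.07 (SE 0.22, adjusted p = 0.0175), a call that was lost without *pri* sample 2 (0.0553), *ken* sample 1 (0.0591) or *ken* sample 3 (0.07), or with 2 genotypes fitted (0.0544).

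*Cyp313b1*, a CYP4 clan gene on 3R (8643070 to 8645650), was lower in *ken* with little spread. It had 578, 686 and 670 normalized counts in *pri* and 323, 313 and 308 in *ken* mutants, against 548, 586 and 453 in control embryos. Its log2 fold change was −0.75 in *ken* against control (SE 0.12, adjusted p = 0.0075) and 1.04 in *pri* against *ken* (SE 0.12, adjusted p = 0.00113). *Cyp9f3*, a CYP3 gene on 3R (12396007 to 12398929), had a like pattern of smaller size, at 411, 373 and 323 in *pri* and 259, 206 and 255 in *ken* mutants, against 415, 356 and 416 in control embryos. Its log2 fold changes were −0.72 in *ken* against control (adjusted p = 0.0197) and 0.62 in *pri* against *ken* (adjusted p = 0.0274). Both *Cyp9f3* calls were lost without *ken* sample 2 (adjusted p = 0.0609 and 0.0946) or *ken* sample 3 (0.0549 and 0.0625); the first was also lost without control sample 1 (0.0798) or 3 (0.0851), and the second without *pri* sample 1 (0.058), *pri* sample 2 (0.0729) or control sample 3 (0.0525), or with 2 genotypes fitted (0.096).

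In 4 further genes that were lower in *ken*, the *pri* mean lay between the other means. *Cyp6t1* (CYP3, X, 21517434 to 21519218) had 183, 282 and 254 normalized counts in *pri* and 138, 165 and 159 in *ken* mutants, against 305, 368 and 305 in control embryos. Its log2 fold change was −1.08 in *ken* (SE 0.18, adjusted p = 0.0084), and this call held in all 17 alternatives. *Cyp4d1* (CYP4, X, 2159145 to 2162180) had 501, 414 and 382 in *pri* and 367, 217 and 288 in *ken* mutants, against 653, 501 and 646 in control embryos (−1.05 in *ken*, SE 0.20, adjusted p = 0.0182). The call of *Cyp4d1* was lost without *ken* sample 3 (adjusted p = 0.0727), control sample 1 (0.0745) or control sample 3 (0.0783).

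*Cyp6g1*, known for resistance of adult flies to DDT, was present at low counts (2R, 12185667 to 12188431). It had 27.5, 38.2 and 51.3 normalized counts in *pri* and 20.6, 25.3 and 24.7 in *ken* mutants, against 71.6, 66.5 and 54.8 in control embryos, with a log2 fold change of −1.46 in *ken* (SE 0.26, adjusted p = 0.0141). The call was lost without *ken* sample 1 (adjusted p = 0.0514), *ken* sample 3 (0.0532), control sample 1 (0.0598) or control sample 2 (0.0514). *Cyp4ad1* (CYP4, 2R, 8439395 to 8442806) had 162, 138 and 137 in *pri* and 144, 95.8 and 120 in *ken* mutants, against 248, 200 and 267 in control embryos. All mutant samples were below all control samples, and the log2 fold change was −0.99 in *ken* (SE 0.19, adjusted p = 0.0173) and −0.71 in *pri* (SE 0.19, adjusted p = 0.0508, not called). The call in *ken* was lost without *ken* sample 3 (0.0677), control sample 1 (0.068) or control sample 3 (0.0799), while *pri* lay close to the threshold and was called in 8 of 17 alternatives: without *ken* sample 1 (0.037) or *ken* sample 2 (0.0333), by DESeq2 (0.00762), after either filter on low counts (0.0398 with filterByExpr), with 2 genotypes fitted (0.0408), with the block (0.0154) and with a robust spread (0.0422). *pri* against *ken* was at 0.28 and was not called in any of the 17.

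Called higher in *ken* against control but not in *pri* were 3 genes of the Cyp6 family. *Cyp6a22* (2R, 14871366 to 14873705) had 243, 229 and 244 normalized counts in *pri* and 388, 332 and 285 in *ken* mutants, against 196, 181 and 152 in control embryos. It rose by 0.92 in *ken* (SE 0.15, adjusted p = 0.00843), a call held in all 17 alternatives. *Cyp6d4* (3R, 22698319 to 22700307) had 391, 460 and 504 in *pri* and 825, 539 and 707 in *ken* mutants, against 375, 334 and 382 in control embryos, a rise of 0.92 in *ken* (SE 0.16, adjusted p = 0.013) that was lost without *ken* sample 3 (0.0508), control sample 1 (0.051) or control sample 2 (0.0595). In both genes the 3 *pri* samples lay between the other groups, with no call against control.

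*Cyp6a19*, also on 2R (14877786 to 14879752), was at a low count outside *ken* mutants. It had 4.58, 3.18 and 7.32 normalized counts in *pri* and 72.4, 21.1 and 27.6 in *ken* mutants, against 6.99, 5.39 and 7.99 in control embryos. Its log2 fold change was 2.57 in *ken* against control (SE 0.52, adjusted p = 0.0233) and −2.98 in *pri* against *ken* (SE 0.55, adjusted p = 0.00995). *ken* sample 1 was the highest by far, and without it the values were 1.83 and −2.24, both still called. The first call was lost without control sample 1 (0.0893), 2 (0.0966) or 3 (0.0806). *Cyp6a19* shares 397 exon bases with *Cyp6a9* on the other strand, and the strand setting of the counting is not given in the sources used here.

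Of the counts of genes called in *ken* against control, 3 of the 5 higher calls were left without control sample 1 or 2, and 5 of the 9 lower calls without *ken* sample 3 or control sample 1. The 4 genes lower in *pri* than in *ken* were 7 without *ken* sample 2. Samples with the same number had positively correlated deviations in *ken* and control and in *pri* and *ken*, weakly so for number 3, where *pri* sample 3 correlated more with *ken* sample 2 (0.36) than with *ken* sample 3 (0.12). With the number as a block, 11 genes were higher and 10 lower in *ken* against control, including all 14 called without it, and 11 were higher and 11 lower in *pri* against *ken*, including all 10. The shares of all genes called with the block are not given here, so the added calls cannot be read as particular to P450 genes. Among the genes that the block added was *Cyp9b2*, a CYP3 gene among the 8 highest of control embryos.

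*Cyp9b2* (2R, 7130277 to 7132139) had 1600, 1072 and 1069 normalized counts in *pri* and 3418, 1187 and 3051 in *ken* mutants, against 1128, 1041 and 1133 in control embryos. *ken* sample 2 lay near the control values and the other *ken* samples far above. In *ken* the log2 fold change was 1.21 (SE 0.34, adjusted p = 0.0795, not called). It was called with the block (1.11, adjusted p = 0.0286) and without *ken* sample 2 (adjusted p = 0.00306), and *pri* against *ken* likewise (block: −0.96, adjusted p = 0.0379; without *ken* sample 2, adjusted p = 0.0032). With the block, 4 more of the genes described above were called in *pri* against *ken*: *Cyp4d1* (0.59, adjusted p = 0.0211), *Cyp6a22* (−0.47, 0.0465), *Cyp6d4* (−0.60, 0.0316) and *Cyp6t1* (0.63, 0.0173). *Cyp6d4* and *Cyp6t1* lay close to the threshold and were each called there in 6 of 17 alternatives, among them DESeq2, which also called *Cyp6a22*.

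The remaining 2 of the 8 highest genes were not called in any comparison of the fit without the block. *Cyp4g1*, which forms cuticular hydrocarbons in oenocytes, had 2414, 2521 and 2327 normalized counts in *pri* and 2228, 2650 and 2680 in *ken* mutants, against 2504, 2462 and 2202 in control embryos (X, 467057 to 469335). Its log2 fold change was 0.02 in *pri* (95% interval −0.19 to 0.23) and 0.07 in *ken* (−0.14 to 0.28). *Cyp301a1*, a mitochondrial P450 gene needed for the adult cuticle, had 1377, 1690 and 1561 in *pri* and 1636, 2234 and 1759 in *ken* mutants, against 1861, 2231 and 1806 in control embryos (2R, 12566185 to 12569061). The log2 fold change of *Cyp301a1* was −0.35 in *pri* (95% interval −0.66 to −0.04, adjusted p = 0.168) and −0.07 in *ken* (−0.38 to 0.23).

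Many of the genes lie in clusters. Of the 79 genes, 42 lie in 15 loci of several P450 genes less than 20 kb apart. Closely related neighbors can share reads, and 18 of the 79 genes overlap another gene on exons. Within a single mutant, neighbors called in opposite directions against control were found in 1 of these loci. Where another locus held a gene called in a mutant, its neighbors were uncalled in that mutant or called in the same direction. In the Cyp4ad1-Cyp4e2-Cyp4e1 locus each gene had its own pattern of calls, with *Cyp4ad1* lower in *ken*, *Cyp4e2* lower in *pri* and *Cyp4e1* higher in *pri*. The cuticle protein gene *Lcp4*, 899 bases from *Cyp4ad1*, was higher in *pri* (7.58) and in *ken* (2.54). *Cyp309a1* lies 55 bases from *Cyp309a2* and had 914, 638 and 623 normalized counts in *pri* and 861, 633 and 941 in *ken* mutants, against 786, 628 and 858 in control embryos (0.10 in *ken*, 95% interval −0.35 to 0.54), beside the drop of *Cyp309a2*.

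Next to *Cyp4p2* lie *Cyp4p1*, at 209 bases, and *Cyp4p3*. *Cyp4p1* had 1872, 518 and 555 normalized counts in *pri* and 708, 425 and 477 in *ken* mutants, against 426, 330 and 133 in control embryos. Its log2 fold change was 1.72 in *pri* (SE 0.56, adjusted p = 0.103) and 0.85 in *ken* (SE 0.55, adjusted p = 0.482), neither called. *Cyp4p3* was at −0.08 and −0.21, also not called. The largest cluster, on 2R from 14871366 to 14903095, holds 8 genes, of which *Cyp6a8* was lower in *pri* and *Cyp6a22* and *Cyp6a19* were higher in *ken*. *Cyp6a23* (0.57), *Cyp6a9* (0.45) and *Cyp6a20* (1.26) had positive log2 fold changes in *ken* that were not called, *Cyp6a17* had −1.17 and *Cyp317a1* −0.03. With the sample number as a block, 3 of these genes were called in *ken* against control: *Cyp6a23* (0.55, adjusted p = 0.0225), *Cyp6a20* (1.07, 0.0484) and *Cyp6a17* (−1.30, 0.0213).

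**Figure D4:**
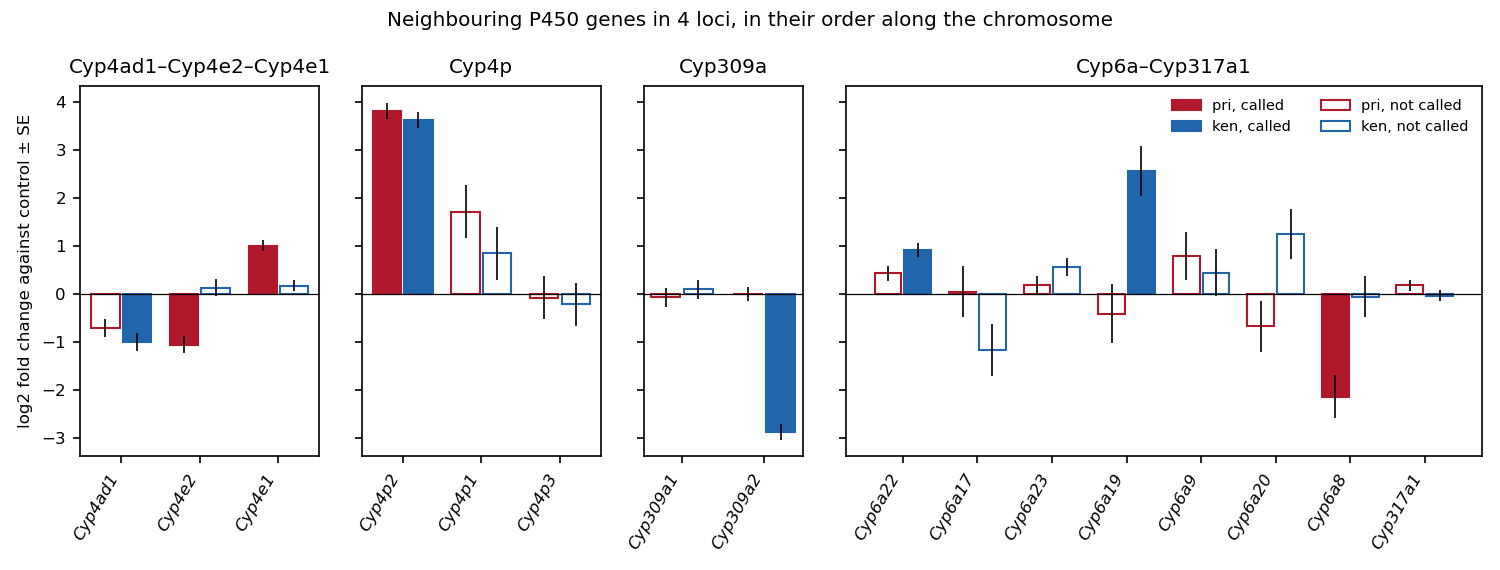
Log2 fold change against control, with its SE (edgeR, n = 3 samples per genotype), of neighboring P450 genes in 4 loci, in *pri* (red) and *ken* (blue). Filled bars have an adjusted p under 0.05. In each locus filled and open bars stand side by side.

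In many P450 genes sample 1 stood above the mean of the other samples of its genotype, a pattern seen in the values and then counted. On the log2(normalized count + 1) scale, sample 1 exceeded the mean of samples 2 and 3 by more than 1 in 11 of 52 P450 genes with a mean of at least 50 normalized counts in *pri* mutants, in 11 in *ken* mutants and in 3 in control embryos. These are 21.2%, 21.2% and 5.77% of the P450 genes, beside 6.65%, 4.51% and 1.03% of all 9588 genes at that level. None of the 52 was lower by more than 1, and in 31 of the 52 sample 1 lay above the mean of samples 2 and 3 in all 3 genotypes (59.6%, beside 19.8% of all).

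The genes with the widest gap include some known from responses to toxins and insecticides. *Cyp12a4*, tied to lufenuron resistance, had 751, 53.0 and 55.4 normalized counts in *pri* and 111, 63.2 and 76.0 in *ken* mutants, against 169, 70.1 and 146 in control embryos. *Cyp28d2* had 1366, 122 and 180 in *pri* and 1169, 258 and 748 in *ken* mutants, against 204, 79.1 and 97.0 in control embryos. *Cyp6a2*, tied to DDT resistance, had 147, 10.6 and 26.1 in *pri* and 1047, 215 and 174 in *ken* mutants, against 93.4, 80.9 and 9.13 in control embryos. In these genes the samples of 1 genotype differed by several times, and none was called in the fit without the block. *Cyp28d2* had log2 fold changes of 2.12 in *pri* (SE 0.92, adjusted p = 0.215) and 2.51 in *ken* (SE 0.92, adjusted p = 0.189). *Cyp6a2* stood at 2.95 in *ken* (SE 1.08, adjusted p = 0.186). With the block, both were called in *ken* against control (*Cyp28d2* 2.44, adjusted p = 0.00936; *Cyp6a2* 2.70, adjusted p = 0.0195), and *Cyp6a2* in *pri* against *ken* (−3.04, adjusted p = 0.00797). *Cyp6a20*, known for its part in aggression, had 723, 386 and 529 in *pri* and 3991, 939 and 1312 in *ken* mutants, against 1242, 827 and 535 in control embryos.

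Sums of 5 of the 8 tissue lists were also highest in sample 1 of each genotype: midgut, Malpighian tubule, epidermis, neuron and muscle. The normalized counts of 25 midgut genes, mostly digestive proteases and maltases, summed to 25998, 8060 and 9089 in *pri* and 14432, 7930 and 11460 in *ken* mutants, against 13133, 9247 and 12576 in control embryos. For each midgut gene, sample 1 minus the mean of samples 2 and 3 was taken on the log2(normalized count + 1) scale. The median over these genes was 3.48 in *pri* mutants, 0.73 in *ken* mutants and 0.67 in control embryos. Malpighian tubule genes summed to 3788, 1978 and 2106 in *pri* and 2815, 1789 and 2365 in *ken* mutants, against 3081, 2056 and 2774 in control embryos. Epidermal genes summed to 27811, 14701 and 16695 in *pri* and 22820, 22403 and 22556 in *ken* mutants, against 21992, 20342 and 19703 in control embryos. Neuronal genes summed to 37730, 30807 and 31215 in *pri* and 33846, 27139 and 31966 in *ken* mutants, against 33576, 26427 and 30949 in control embryos. In muscle genes the sums were 753728, 570188 and 580092 in *pri* and 656828, 560280 and 652093 in *ken* mutants, against 628774, 558726 and 607574 in control embryos. In *pri*, *ken* and control, the same median was 0.62, 0.54 and 0.29 for Malpighian tubule genes and 0.41, 0.29 and 0.18 for neuronal genes. It was 0.47, 0.11 and 0.05 for muscle genes and 0.02, −0.12 and 0.19 for epidermal genes. The part of these tissues in the P450 values was not tested. Against control, none of the 25 midgut genes was called in *pri* by edgeR (6 at an unadjusted p under 0.05, beside 22.1% of all genes). In *ken* 2 of them were lower, beside 2.81% of all genes. With *pri* sample 1 and *ken* sample 1 left out, an alternative chosen after seeing the data, 4 P450 genes were higher and 11 lower in *pri* against control and 14 were lower in *ken*. The shares of all genes called without these samples are not given here, so the counts cannot be read as particular to P450 genes.

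**Figure D5:**
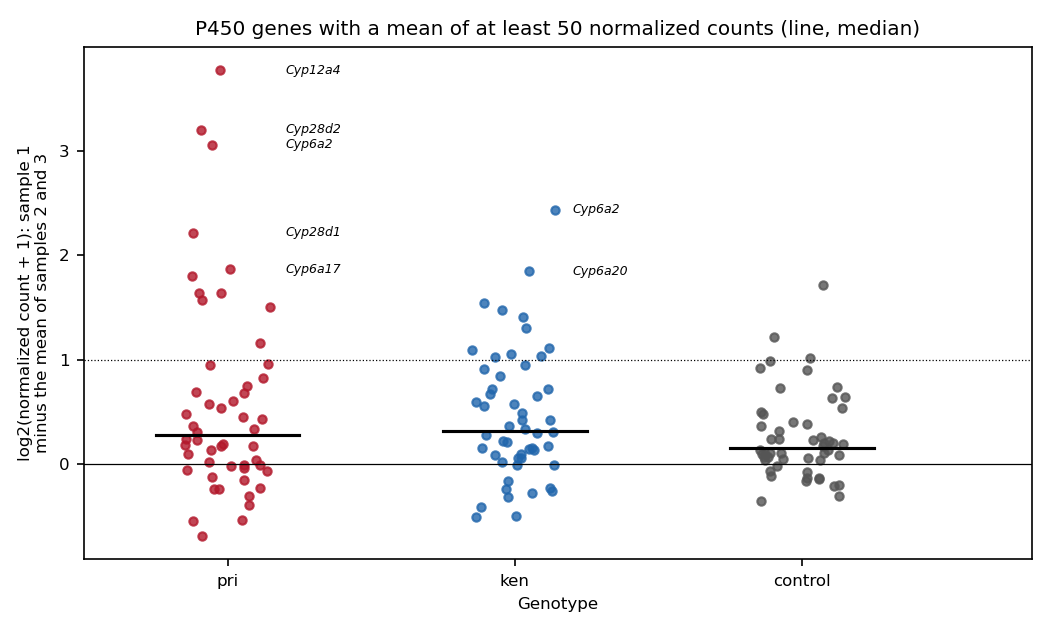
For each of 52 P450 genes with a mean of at least 50 normalized counts, log2(normalized count + 1) in sample 1 minus the mean of samples 2 and 3, in *pri*, *ken* and control embryos; thick lines are medians and the dotted line marks a difference of 1. Points above the dotted line number 11, 11 and 3, and none lies below −1.

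The other tissue lists were compared with control by the same edgeR fit. Among all genes of that fit, 3.68% were higher and 3.83% lower in *pri*, and 22.1% had an unadjusted p under 0.05. In *ken* these shares were 2.21%, 2.81% and 17.7%. Of 6 tracheal genes 3 were lower in *pri* (*verm*, *serp* and *Gasp*), with 5 at an unadjusted p under 0.05 and a median log2 fold change of −0.47, and none was called in *ken* (1 unadjusted). Of 7 epidermal genes 1, *sha*, was lower in *pri* (4 unadjusted, median −0.43) and none was called in *ken* by edgeR (2 at an unadjusted p under 0.05). The paper names *sha* as a direct target of the transcription factor Svb, which Pri peptides activate. Of 8 hemocyte genes 2 were higher in *pri* (5 unadjusted) and 1 lower in *ken* (3 unadjusted). Of 9 fat body genes 1 was higher in *pri* (3 unadjusted) and 1 in *ken* (1 unadjusted), and of 9 Malpighian tubule genes none was called in *pri* by edgeR (3 at an unadjusted p under 0.05) and 1 was higher and 1 lower in *ken* (2 unadjusted). Of 8 neuronal and 8 muscle genes none was called against control by edgeR (at an unadjusted p under 0.05, 1 neuronal gene in *pri* and no other).

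Partners of the P450 enzymes were compared in the same fit. Against control, 1 of 6 redox partner genes was called higher in *pri* and 2 in *ken*. Over all genes, 3.68% were higher in *pri* and 2.21% in *ken*. Of 6 redox partner genes, the ferredoxin gene *Fdx2* averaged 1225 ± 113 normalized counts in *pri* and 1445 ± 39.8 in *ken* mutants, against 894 ± 44.1 in control embryos (SD, n = 3 each), and was called higher in both (0.45 in *pri*, adjusted p = 0.0135; 0.69 in *ken*, adjusted p = 0.00192). *dare*, which encodes the reductase that passes electrons to ferredoxin, was higher in *ken* (0.55, adjusted p = 0.0375). *Cpr*, the electron donor of microsomal P450 enzymes, averaged 4025 ± 774 in *pri* and 5153 ± 1093 in *ken* mutants, against 5917 ± 411 in control embryos (−0.56 and −0.20, not called). *Cyt-b5-r* was at −0.82 in *ken* against control (adjusted p = 0.0943, not called) and was called higher in *pri* against *ken* (1.11, adjusted p = 0.0215). Of 7 heme synthesis genes, *Coprox* was higher in *pri* (0.36, adjusted p = 0.0432) and none was called in *ken* by edgeR (2 at an unadjusted p under 0.05).

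Among 8 known regulators of P450 genes, such as *cnc*, *Keap1* and *Hr96*, none was called in any comparison by edgeR (3 in *pri*, 1 in *ken* and 2 in *pri* against *ken* at an unadjusted p under 0.05). Of 8 genes of very long chain lipid and hydrocarbon synthesis, *FASN2*, a fatty acid synthase gene, was higher in *ken* (0.95, adjusted p = 0.0328), and none was called in *pri* by edgeR (1 at an unadjusted p under 0.05). Between the mutants, *FASN2* was called lower in *pri* than in *ken* (−1.29, adjusted p = 0.0057) and *FarO* higher (0.59, adjusted p = 0.0389). P450 genes of ecdysteroid metabolism outside the name rule were lower in *ken* in 2 of 7 cases, where 2.81% of all genes were lower. In *ken* against control, 4 of the 7 had an unadjusted p under 0.05, beside 17.7% of all genes. The same 2 were called higher in *pri* against *ken*. *phm*, an enzyme gene of ecdysone synthesis, averaged 335 ± 26.2 normalized counts in *pri* and 167 ± 11.1 in *ken* mutants, against 336 ± 18.7 in control embryos (−1.01 in *ken*, adjusted p = 0.00141), and *Cyp18a1*, which inactivates ecdysteroids, averaged 3703 ± 74.9 in *pri* and 2348 ± 79.1 in *ken* mutants, against 3877 ± 399 in control embryos (−0.73 in *ken*, adjusted p = 0.00142).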

How the data were processed

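Polyadenylated RNA of 9 samples was sequenced in strand-specific libraries. The authors aligned reads with STAR 2.6.1d to dm6, made the counts per FlyBase gene and dropped genes whose total did not exceed 1. Mouse builds in the submitters' notes do not match the fly gene IDs. The deposited signal values are normalized counts, made by the authors with DESeq2 1.32.0 as counts over a size factor, which was checked (largest relative deviation 5.12e-10). Of 15228 genes, 15159 were matched by ID to the Ensembl annotation of BDGP6.54, including all 79 P450 genes, for positions and exon lengths.

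Counts were fitted in edgeR 4.0.16 (limma 3.58.1, R 4.3.3) with a quasi-likelihood model, TMM factors and a mean per genotype, without further filter. Adjustment was by Benjamini-Hochberg. The SE was taken from the log2 fold change and the F statistic, and 95% intervals use the t distribution of the fit. The code was tested on simulated data.

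The numbers of samples were checked for pairing by the correlation of deviations from genotype means over 11295 genes. Same-numbered samples gave 0.35, 0.47 and 0.17 for *ken* and control, 0.55, 0.53 and 0.12 for *pri* and *ken*, and 0.43, 0.55 and −0.11 for *pri* and control. The pairing rests on these values, not on the labels, and *pri* 3 was closer to *ken* 2 (0.36) than to *ken* 3.

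Values by sample are given for genes called in any comparison and the 8 highest in control per kilobase. Further genes are named as neighbors of called genes or, chosen after their values were seen, for the pattern of sample 1. P450 genes and the lists (tissues, redox partners, heme, regulators, lipid synthesis, ecdysteroid P450 genes, stock markers) were chosen with earlier results of these data known. A sample held 21048610 to 28859395 counts, with a median of 23036142. The SE is set by the spread between samples and not by counting error. Alternatives were DESeq2 1.42.0, RLE factors, library totals, filterByExpr, at least 10 counts in 3 samples, fits of 2 genotypes, the number as a block, a robust spread, a log2 fold change of at least 1, level minimums of 5 and 20, and each sample left out. Left out together after seeing the data were *pri* 1 with *ken* 1, and sample 1 of every genotype. No sequence is printed, as no sequence table was used here.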

Additional observations from a re-analysis of the deposited data

How the results depend on the processing

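Of the 6 counts of called P450 genes, those that moved by more than 1.5 times did so as follows. With the sample number as a replicate block there were 6 higher and 12 lower in *pri* against control (main 3 and 5), 11 higher in *ken* against control (main 5), and 11 higher and 11 lower in *pri* against *ken* (main 6 and 4). For *pri* and control the numbers do not pair all samples, so the block says nothing there of a weaker or stronger effect. The same block fit gave the other comparisons, where number 3 paired weakly (0.12 for *pri* and *ken*, 0.17 for *ken* and control). DESeq2 gave 8 lower in *pri* against control, and 10 higher and 8 lower in *pri* against *ken*. A required log2 fold change of at least 1 left 3 lower in *pri* and 3 higher in *ken* against control, and 3 higher in *pri* against *ken*. Without *pri* 1 and *ken* 1, 11 were lower in *pri* and 14 in *ken* against control, and without sample 1 of every genotype 3 were lower in *pri*. The shares of all genes called in these alternatives are not given here.

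With each sample left out in turn, *pri* against control gave 3 higher and 3 to 7 lower, *ken* against control 3 to 6 higher and 5 to 10 lower, and *pri* against *ken* 4 to 7 higher and 3 to 7 lower. Calls that held in all 17 alternatives for single genes numbered 5 of 8, 8 of 14 and 6 of 10. The required log2 fold change of at least 1 is not among these 17. Of the planned recounts, 88 stayed within 1.5 times and 20 moved. With a minimum mean of 5 or 20 normalized counts, 73 or 60 P450 genes were expressed in *pri*, 72 or 62 in *ken* and 73 or 64 in control.

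No called gene changed sign. Sign changes occurred in uncalled values near 0: in *pri* against control *Cyp309a2* (−0.019 with 2 genotypes fitted; −0.083 to 0.077 with a sample left out), *Cyp4g1* (−0.0041; −0.049 to 0.054) and *Cyp9b2* (−0.042 without *pri* 1 and *ken* 1, −0.021 without all samples 1; −0.042 to 0.28), and in *ken* against control *Cyp301a1* (0.017 without *pri* 1 and *ken* 1; −0.21 to 0.030), *Cyp4e2* (−0.025 to 0.37) and *Cyp6a8* (0.37 without all samples 1; −0.23 to 0.36). The causes were not tested.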
